A study of Mus musculus with 24 samples.

Results

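The cytochrome P450 genes were described in ductal cells (DCs), liver stroma and organoids of the mouse. They were taken as every symbol in both tables that reads Cyp, a family number, a letter and a gene number, which gave 93 genes of 49568 rows in each table. The rule used no measured value and leaves out 34 other symbols that begin with Cyp, such as Cyp51. The fresh fractions came from 3 littermates of 12 weeks on a C57BL/6 background, heterozygous for a Pdgfra allele that expresses a nuclear GFP (B6.129S4-Pdgfratm11(EGFP)Sor/J), of which mice A and E were male and mouse F was female. From each mouse EpCAM+ DCs and 3 kinds of stromal cell were sorted, which were positive for PDGFRα alone (PDGFRα+SCA1-), for both proteins (PDGFRα+SCA1+) or for SCA1 alone (PDGFRα-SCA1+), with n = 3 libraries each. The gates removed cells carrying CD31, CD45 or CD11b. The transwell experiment used wild type C57BL/6 mice of 8 to 12 weeks, whose sex the labels do not give, and had 6 groups of 2 libraries. These were fresh DCs and fresh SCA1+ mesenchymal cells (Msc, gated without PDGFRα) at day 0, and, after 15 days of culture, organoids in expansion medium (EM), organoids grown across a membrane from Msc, Msc alone, and the Msc of that co-culture. The medium of the co-culture held WNT3A and lacked the growth factors of EM, so the presence of Msc and the medium cannot be told apart in the organoids. Per the paper, the Msc were first expanded on plates in that medium before the DCs were added.

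P450 enzymes are haem proteins of the endoplasmic reticulum and mitochondria that insert an atom of oxygen into their substrate. In hepatocytes the first families oxidise drugs and other foreign compounds, family 4 hydroxylates fatty acids, and others make bile acids, clear retinoic acid, or act on steroids and vitamin D. Microsomal P450s take electrons from the reductase Por and from cytochrome b5. Most of the P450 RNA of the liver is made by hepatocytes, which none of these gates selects, so hepatocyte markers are given beside the results they touch. In bulk samples, fewer cells of a type and less RNA per cell cannot be told apart.

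By role, 46 of the genes belong to the drug and xenobiotic families, 26 to fatty acid and eicosanoid oxidation, 6 to bile acid and sterol metabolism, 6 to steroid hormones, 3 to retinoic acid clearance, 3 to vitamin D, and 3 are orphans without a settled substrate. In the fresh fractions 47 genes reached a value of 1 in at least 3 libraries and were tested, 20 were above 0 without reaching it and 26 were listed at 0. In the transwell experiment, where 2 libraries sufficed, 63 were tested, 16 fell short and 14 were at 0. A set of 12 genes was at 0 in all 24 libraries. Levels of the fresh fractions are the deposited values, which are scaled for gene length and library size and lie near TPM (transcript abundance as a part of a fixed library total), and those of the transwell experiment are TPM. Differences are on the log2(value + 1) scale with their standard error, and "rose" or "fell" means an adjusted p under 0.05.

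The promoters of 3 genes are shown first, because these genes were high in the same stromal fraction and their known regulators bind short DNA elements. The windows are from RefSeq on GRCm38.p6 and run from 250 bases before to 50 after the start site, in the direction of the gene. In Cyp1a1 and Cyp1b1 capitals mark GCGTG, the core bound by the aryl hydrocarbon receptor (Ahr) with Arnt, searched on both strands (CACGC on the other). In Cyp26a1 they mark a pair of retinoic acid receptor half-sites, AGGTCA or AGTTCA, 5 bases apart, also searched on both strands.
Cyp1a1, chr9:57697363-57697662, plus strand: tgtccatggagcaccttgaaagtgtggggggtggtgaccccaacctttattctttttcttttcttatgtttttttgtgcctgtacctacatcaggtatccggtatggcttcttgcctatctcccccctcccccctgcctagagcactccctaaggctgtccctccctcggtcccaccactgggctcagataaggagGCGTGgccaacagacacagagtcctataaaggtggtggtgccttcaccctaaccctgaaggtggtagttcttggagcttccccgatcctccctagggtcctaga
Cyp1b1, chr17:79715012-79715311, minus strand: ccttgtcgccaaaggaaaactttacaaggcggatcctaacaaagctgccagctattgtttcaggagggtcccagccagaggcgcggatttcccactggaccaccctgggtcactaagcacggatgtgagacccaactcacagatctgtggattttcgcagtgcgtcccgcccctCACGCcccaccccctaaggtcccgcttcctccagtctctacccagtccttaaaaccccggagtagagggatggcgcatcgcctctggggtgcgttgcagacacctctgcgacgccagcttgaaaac
Cyp26a1, chr19:37697558-37697857, plus strand: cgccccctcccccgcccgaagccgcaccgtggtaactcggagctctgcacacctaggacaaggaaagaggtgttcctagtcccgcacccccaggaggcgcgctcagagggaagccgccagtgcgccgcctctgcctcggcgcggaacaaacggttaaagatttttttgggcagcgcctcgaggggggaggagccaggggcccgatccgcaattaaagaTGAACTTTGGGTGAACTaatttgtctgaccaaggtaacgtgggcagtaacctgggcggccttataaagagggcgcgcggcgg
GCGTG stood in 32.4% of all 32851 promoter windows of this length and in those of 15 of the 72 P450 genes with a window. The spaced pair stood in 13 windows, or 0.04%, and among the P450 genes in that of Cyp26a1 alone. A match of letters describes the window and shows no binding.

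Library depth, recovered from the smallest values, was 19636000 to 25673000 reads in the fresh fractions and 19303000 to 28075000 in the transwell experiment. All 6 mesenchymal markers exceeded 10 in both PDGFRα+ fractions and in every Msc library, and all 6 ductal markers did so in DCs and organoids. In PDGFRα-SCA1+ cells all 6 endothelial markers exceeded 10, with Pecam1, which encodes CD31, at 726, 732 and 929 although the gate removed CD31+ cells, and Pdgfra was at most 0.0402. The sum of 20 hepatocyte markers was 457 to 3890.3 in the PDGFRα+ fractions, 3611 to 13226 in PDGFRα-SCA1+ cells and 10097 to 11026 in DCs, where Alb and Ambp led it. The sum of 6 blood cell markers was 344 to 4880.4 in the fresh fractions, 3222 to 6542 in the fresh transwell cells and 4.2 to 87.5 after culture. Fresh Msc of the transwell experiment stood apart with sums of 42342 and 35059.5, all 20 hepatocyte markers above 10, and all 6 endothelial markers above 10. Their sum of the 6 ductal markers was 1163 and 2431, with 4 and 5 of these at 10 or more. In PDGFRα-SCA1+ cells the ductal sum was 79.9, 3707 and 316 in mice A, E and F.

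**Figure D1:**
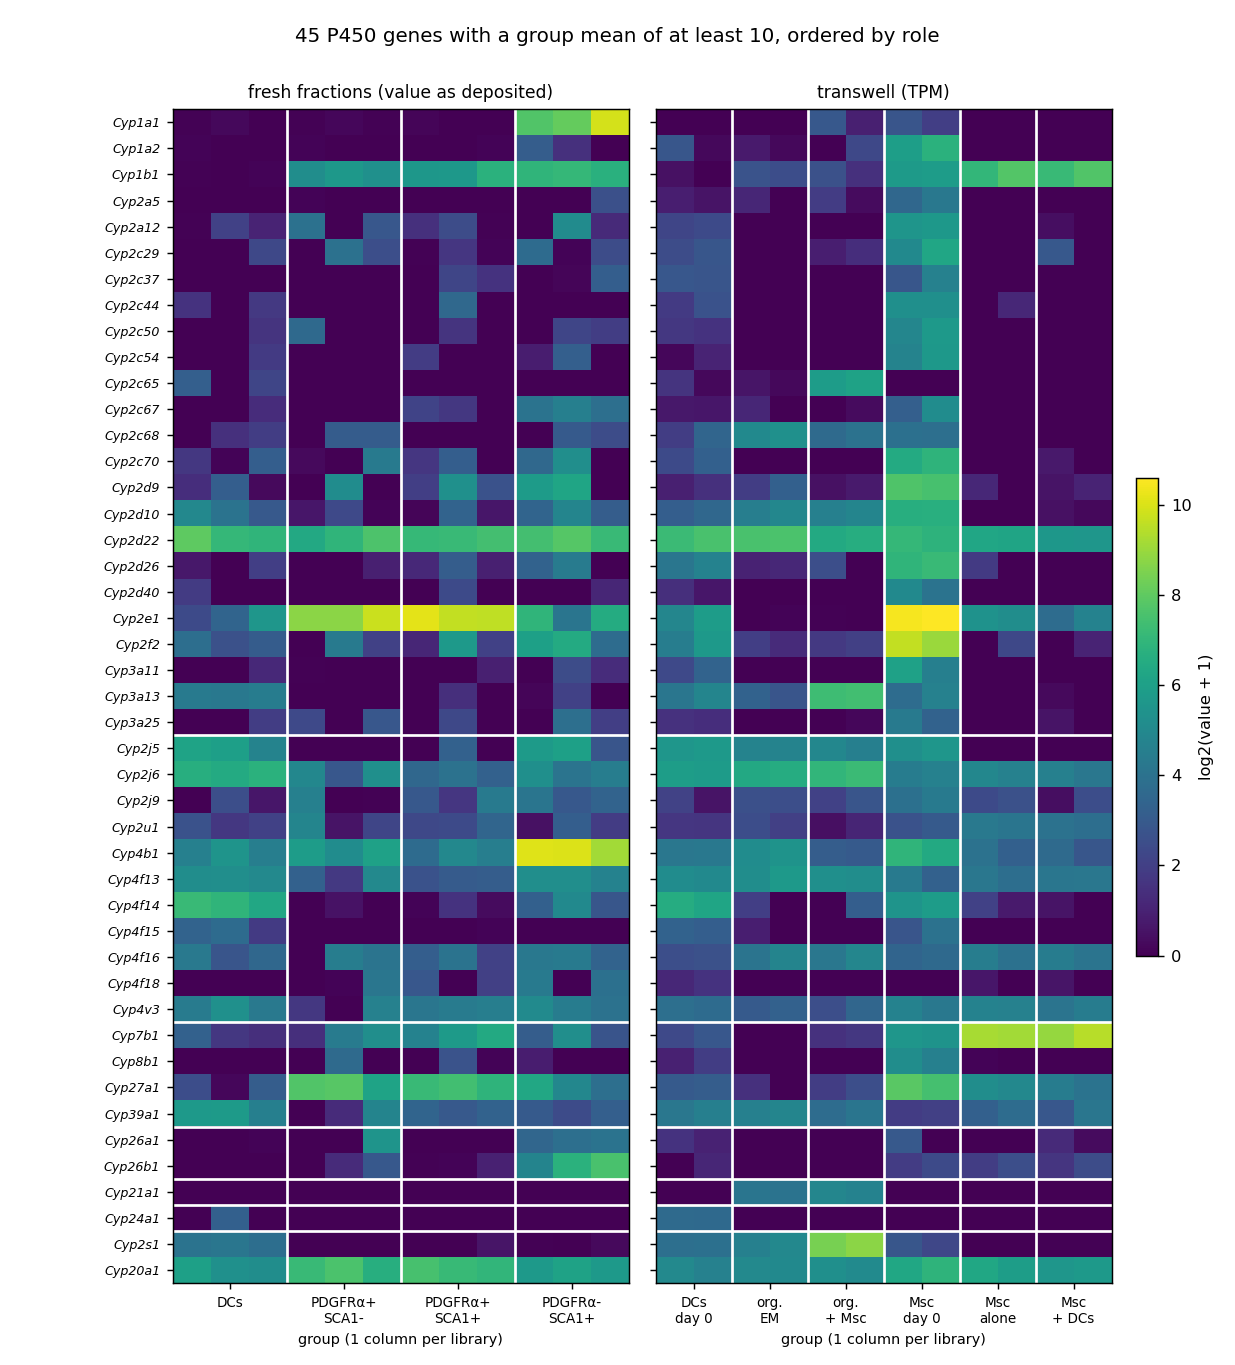
Heat map of log2(value + 1) for the 45 P450 genes with a group mean of at least 10 in any group, with 1 column per library and rows ordered by role. Cyp2e1 is high in both PDGFRα+ fractions and in fresh Msc, Cyp1a1 and Cyp4b1 in PDGFRα-SCA1+ cells, Cyp2s1 in organoids grown with Msc and Cyp7b1 in cultured Msc.

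The summed level of all P450 genes was 673 to 930.3 in DCs, 1086 to 1647 in PDGFRα+SCA1- cells, 1503 to 1783 in PDGFRα+SCA1+ cells and 2331 to 2537 in PDGFRα-SCA1+ cells. Only the PDGFRα+ fractions overlapped in it. A different gene led each cell type. Cyp2d22 led in all 3 DC libraries with 17.7 to 27% of the sum, Cyp2e1 in all 6 PDGFRα+ libraries with 35.5 to 63.8%, and Cyp4b1 (mice A and E) or Cyp1a1 (mouse F) in PDGFRα-SCA1+ cells with 40.9 to 47%.

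Cyp2e1 (ENSMUSG00000025479.9, chromosome 7, 140763739 to 140774987 on the plus strand, GRCm38), which oxidises ethanol and other small molecules and is known as a pericentral hepatocyte enzyme, was the P450 gene with the highest level in the PDGFRα+ stroma. In mice A, E and F it was 1138, 781 and 758 in PDGFRα+SCA1+ cells and 429.5, 435 and 851 in PDGFRα+SCA1- cells. It was 120.1, 16.5 and 92.1 in PDGFRα-SCA1+ cells and 4.23, 9.78 and 46.2 in DCs. Every PDGFRα+ library was above every library of the other 2 fractions. The difference from DCs was 5.98 ± 0.79 in PDGFRα+SCA1+ cells (limma, adjusted p = 0.000131) and 5.29 ± 0.79 in PDGFRα+SCA1- cells (limma, adjusted p = 0.000324), and the means were 44.4 and 28.5 times that of DCs. From PDGFRα+SCA1+ to PDGFRα-SCA1+ cells Cyp2e1 fell by 3.91 ± 0.79 (limma, adjusted p = 0.00401).

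Hepatocyte markers were measured beside Cyp2e1, and their part in its level was not tested. In PDGFRα+SCA1+ cells the sum of the 20 markers was 586, 3890.3 and 457 in mice A, E and F, and Cyp2e1 stood at 194, 20.1 and 166% of it. In DCs, which had larger sums, it was 0.04 to 0.46%. Of the 6 pericentral hepatocyte markers 4 were tested, of which 1 rose and 1 fell in PDGFRα+SCA1+ cells against DCs, and 1 rose and 0 fell in PDGFRα+SCA1- cells. The gene that rose was Oat, ornithine aminotransferase. It was 514 to 902 in the 6 PDGFRα+ libraries, 202 to 301 in PDGFRα-SCA1+ cells and 26.7 to 44 in DCs. In the transwell experiment Oat was 635 and 712 in fresh Msc. It was 1509 and 1369 in Msc alone and 1158 and 1285 in Msc with DCs, where all 20 hepatocyte markers fell. Gulo was 0.0633 to 0.0802 in PDGFRα+SCA1+ cells, 0 to 16.4 in PDGFRα+SCA1- cells and 5.53 to 13.3 in DCs. Rgn was 0 to 13.2 in the PDGFRα+ libraries and 0 to 16.8 in DCs, and Slc1a2 was 0 to 0.724 and 0.136 to 0.602. Glul, glutamine synthetase, was 63.3 to 188 in the PDGFRα+ libraries and 82 to 130.3 in DCs, and Rhbg was 0 in all stroma. Cyp2f2, a periportal hepatocyte enzyme, was 1.2, 52.6 and 3.14 in PDGFRα+SCA1+ cells, highest in mouse E, as the marker sum was. It was 0, 19.3 and 3.1 in PDGFRα+SCA1- cells and 13.2, 5.26 and 7.37 in DCs. Cyp2d9, another hepatocyte enzyme, was 2.88, 39.3 and 5.29 in PDGFRα+SCA1+ cells and also highest in mouse E. In that fraction 21 of the 37 P450 genes that reached 1 in any library were highest in mouse E, and Cyp2e1 was highest in mouse A.

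**Figure D2:**
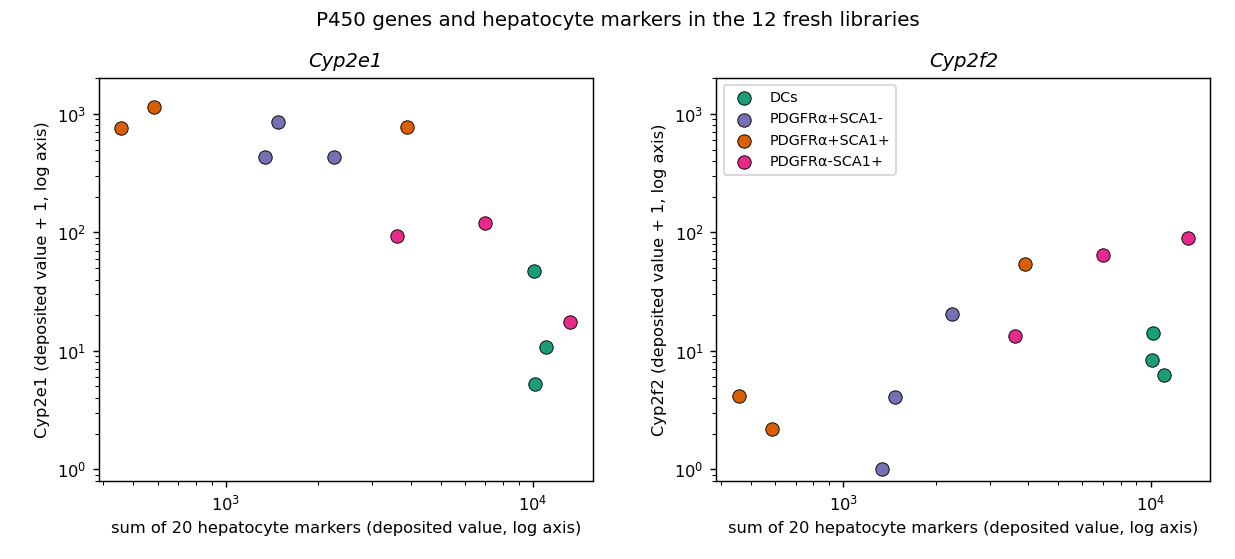
Cyp2e1 (left) and Cyp2f2 (right) against the summed value of 20 hepatocyte markers in the 12 fresh libraries, on log axes with 1 added to the P450 values. PDGFRα+ libraries hold Cyp2e1 at 429.5 to 1138 with marker sums of 457 to 3890.3, while DCs hold it at 4.23 to 46.2 with sums of 10097 to 11026.

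Of the 47 P450 genes tested, 5 rose and 7 fell in PDGFRα+SCA1+ cells against DCs, where 9.85% of all genes tested were higher and 14% lower. In PDGFRα+SCA1- cells 4 rose and 8 fell against DCs, beside 9.98% and 18.9% of all genes. The median difference of the P450 genes was -0.04 and -0.33, against -0.28 and -0.47 over all genes. Every comparison with DCs shares the same DC libraries. Of the 13 fatty acid and eicosanoid genes tested, 5 and 4 fell in the 2 fractions and 0 rose in either.

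Cyp27a1, the mitochondrial enzyme that oxidises the side chain of cholesterol, was 143, 169 and 118 in PDGFRα+SCA1+ cells, 209, 228 and 69.5 in PDGFRα+SCA1- cells and 4.71, 0.124 and 7.81 in DCs. Neither fraction overlapped DCs, and it rose by 5.22 ± 0.78 and 5.29 ± 0.78 (limma, adjusted p = 0.000361 and 0.000306). In PDGFRα-SCA1+ cells it was 81.5, 28.8 and 13.5, a rise of 3.1 ± 0.78 (limma, adjusted p = 0.0121) that was lost without the library of mouse A (adjusted p = 0.0544).

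Cyp7b1, which hydroxylates oxysterols, was 25, 53.6 and 84.6 in PDGFRα+SCA1+ cells, 1.66, 20.6 and 36.7 in PDGFRα+SCA1- cells and 8.9, 2.3 and 1.68 in DCs. Only the PDGFRα+SCA1+ libraries were all above DCs. Their rise of 3.48 ± 0.98 (limma, adjusted p = 0.0219) was lost without the library of mouse E or F from either fraction (adjusted p of up to 0.0839). Cyp20a1, an orphan, was 182, 138 and 126 in PDGFRα+SCA1+ cells, 145, 190.2 and 98.6 in PDGFRα+SCA1- cells and 64.1, 39.2 and 35.3 in DCs. It rose by 1.7 ± 0.32 and 1.62 ± 0.32 with no overlap (limma, adjusted p = 0.00173 and 0.00213).

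Cyp1b1, which oxidises oestrogens, retinoids and polycyclic compounds, separated all stroma from DCs. Its level was 48.3, 48.9 and 108 in PDGFRα+SCA1+ cells, 35.7, 49.1 and 39.2 in PDGFRα+SCA1- cells and 121, 132 and 105 in PDGFRα-SCA1+ cells. It was at most 0.0665 in DCs, or 2 reads. The rises from DCs were 5.97 ± 0.37, 5.35 ± 0.37 and 6.86 ± 0.37 (limma, adjusted p = 3.07e-07, 7.32e-07 and 2.02e-07). From PDGFRα+SCA1+ to PDGFRα-SCA1+ cells, which overlapped, the difference of 0.89 ± 0.37 did not pass (limma, adjusted p = 0.119).

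Several genes were high in DCs and low or absent in stroma. Cyp4f14, a family 4 enzyme that hydroxylates leukotriene B4, was 144, 121 and 81.3 in DCs, 0 to 1.95 in the 6 PDGFRα+ libraries and 8.55, 31.3 and 6.09 in PDGFRα-SCA1+ cells. Cyp2s1, an orphan of epithelia, was 15.6, 16.7 and 13.2 in DCs and 0 to 0.502 in the 9 stromal libraries. Cyp3a13, of the drug-metabolising family 3, was 19.9, 18.2 and 20.7 in DCs and 0 to 3.19 in stroma. For each of them every DC library was above every stromal one. In PDGFRα+SCA1+ cells the first fell by 6.17 ± 0.65, the second fell by 3.81 ± 0.39 and the third fell by 3.89 ± 0.62 (limma, adjusted p = 2.18e-05, 1.86e-05 and 0.000576). In PDGFRα-SCA1+ cells the fall of Cyp4f14 by 3.13 ± 0.65 (limma, adjusted p = 0.00372) was lost with a pseudocount of 0.1 (adjusted p = 0.0612).

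The epoxygenases Cyp2j5 and Cyp2j6 make signalling lipids from arachidonic acid. Cyp2j6 was 98.5, 87.2 and 108 in DCs and 10.532, 15 and 8.67 in PDGFRα+SCA1+ cells, where it fell by 3.02 ± 0.56 (limma, adjusted p = 0.0017). Cyp2j5 was 70.7, 61.9 and 25.9 in DCs and 0, 8.87 and 0 in PDGFRα+SCA1+ cells, where it fell by 4.53 ± 1.0 (limma, adjusted p = 0.00537), and 54, 64.1 and 6.02 in PDGFRα-SCA1+ cells, which overlapped DCs. Cyp39a1, an oxysterol hydroxylase, was 52, 54 and 23 in DCs and 9.67, 6.85 and 9.05 in PDGFRα+SCA1+ cells. Its difference between them, -2.13 ± 0.95, did not pass (limma, adjusted p = 0.131).

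Cyp2d22, the leading gene of DCs, was 83.2 to 251 in the 12 fresh libraries and each stromal fraction overlapped DCs. Its differences from DCs were -0.08 ± 0.35, -0.33 ± 0.35 and 0.16 ± 0.35 in PDGFRα+SCA1+, PDGFRα+SCA1- and SCA1-only cells, and none passed (limma, adjusted p of 0.52 to 0.903). Between the PDGFRα+ fractions limma called 0 P450 genes, where 3 had an unadjusted p under 0.05 and 0.587% of all genes were called in either direction. The largest levels, those of Cyp2e1, differed by 0.69 ± 0.79 there (limma, adjusted p = 0.806).

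**Figure D3:**
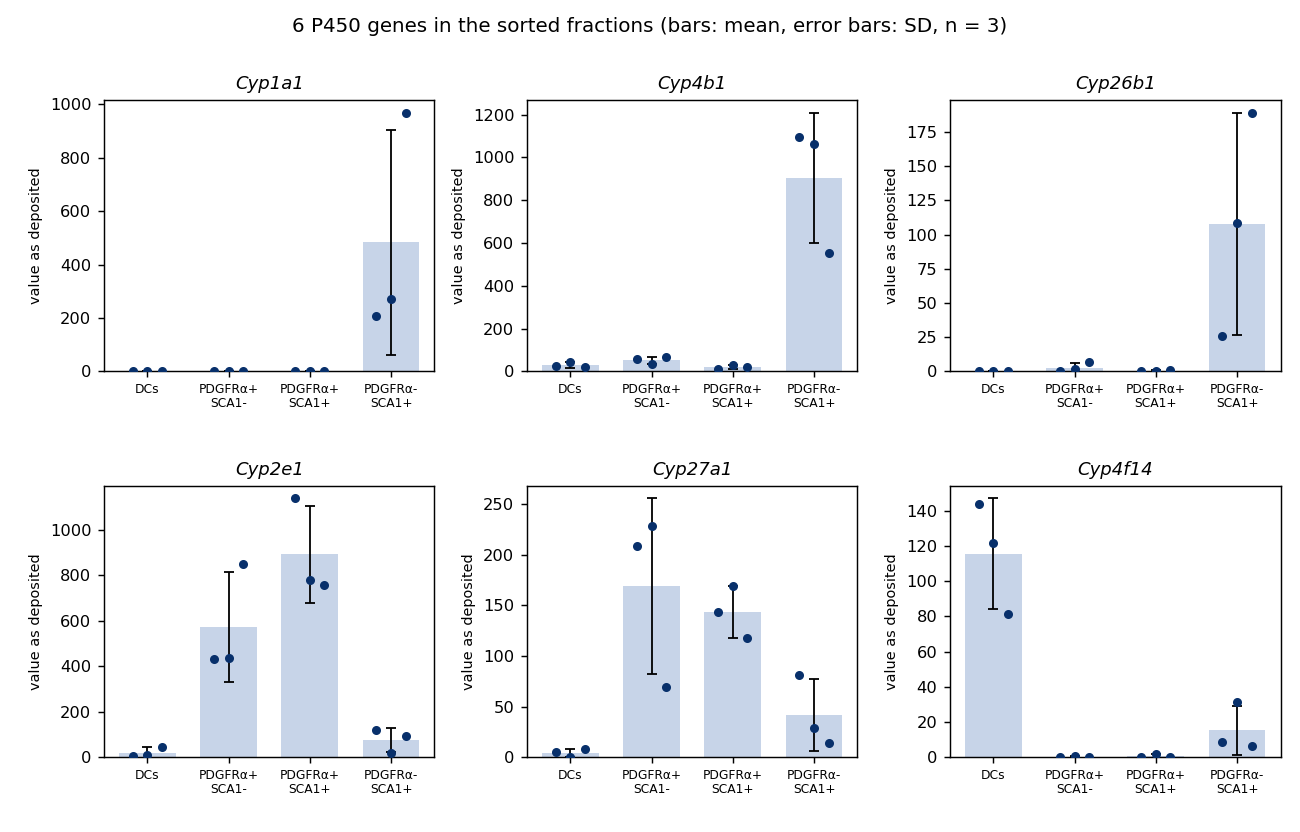
Deposited values of 6 P450 genes in the 4 fresh fractions, with 1 point per mouse, bars at the mean and error bars of 1 SD (n = 3). Cyp1a1, Cyp4b1 and Cyp26b1 are high in PDGFRα-SCA1+ cells, Cyp2e1 and Cyp27a1 in both PDGFRα+ fractions and Cyp4f14 in DCs.

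Both retinoid genes tested, Cyp26a1 and Cyp26b1, rose in PDGFRα-SCA1+ cells against DCs and against PDGFRα+SCA1+ cells, as did Cyp1a1 and Cyp4b1. Against DCs 8 P450 genes rose and 6 fell, beside 11.5% and 11.3% of all genes. Against PDGFRα+SCA1+ cells 10 rose and 3 fell, beside 10.9% and 7.86% of all genes, among them 5 higher fatty acid and eicosanoid genes, or 9 and 5 after quantile normalization. The count of 14 against DCs dropped to 9 without the DC library of mouse A or E or the PDGFRα-SCA1+ library of mouse A, and the count of 13 to 7 or 6 without the PDGFRα-SCA1+ library of mouse A or E.

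Cyp1a1 (ENSMUSG00000032315.6, chromosome 9, 57687928 to 57703824 on the plus strand), the classical Ahr target, was 209.6, 272 and 969 in these cells, from 4343, 4964 and 19521 reads. In the other 9 fresh libraries it was at most 0.165, or 3 reads. It rose by 8.48 ± 0.59 against DCs and by 8.53 ± 0.59 against PDGFRα+SCA1+ cells (limma, adjusted p = 1.13e-06 and 1.82e-06). Its highest library, that of mouse F, had the lowest sum of hepatocyte markers in this fraction, 3611. Cyp1a2, which Ahr also induces and hepatocytes express, was 7.67, 1.81 and 0.

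Ahr itself was 183, 249.6 and 141 in PDGFRα-SCA1+ cells, 135, 112 and 99.4 in DCs and 2.95 to 23.5 in the PDGFRα+ fractions. The PDGFRα-SCA1+ and DC libraries did not overlap, but their difference of 0.69 ± 0.57 did not pass (limma, adjusted p = 0.451), and Cyp1a1 was at most 3 reads in DCs. Of the 4 other Ahr targets on the list 3 were tested, and 2 rose and 0 fell in PDGFRα-SCA1+ cells against DCs, beside 11.5% and 11.3% of all genes. In each PDGFRα+ fraction 1 rose and 0 fell against DCs. Nqo1, a quinone reductase, was 336, 155 and 184 in PDGFRα-SCA1+ cells and 2.92, 3.78 and 2.52 in DCs, a rise of 5.72 ± 1.01 (limma, adjusted p = 0.00119). Tiparp was 299, 391 and 696 in PDGFRα-SCA1+ cells, 122, 152 and 277 in DCs and 273 to 725 in the PDGFRα+ fractions. Aldh3a1 was 0 in all 3 PDGFRα-SCA1+ libraries. Ugt1a6a was also 0 in these 3 libraries, with 0.0332, 0.552 and 1.05 in DCs.

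Cyp4b1 (ENSMUSG00000028713.17, chromosome 4, 115624725 to 115647723 on the minus strand), a family 4 enzyme best known from lung, was 1095, 1064 and 554 in PDGFRα-SCA1+ cells and 12 to 66.7 in the other 9 libraries. It rose by 4.88 ± 0.42 against DCs and by 5.36 ± 0.42 against PDGFRα+SCA1+ cells (limma, adjusted p = 5.17e-06 and 3.9e-06), and its mean was 30.4 and 42.3 times theirs.

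The retinoic acid hydroxylases Cyp26a1 and Cyp26b1, which inactivate retinoic acid, were both high in the same cells. Cyp26b1 was 26.1, 109 and 189 there, at most 0.0268 in DCs and 0 to 6.67 in the PDGFRα+ fractions, and no library overlapped. It rose by 6.36 ± 0.84 against DCs (limma, adjusted p = 0.000136). Cyp26a1, whose promoter window holds the spaced half-sites, was 10.4, 13.8 and 15.4 there and at most 0.0808 in DCs, but 1 PDGFRα+SCA1- library, that of mouse F, held it at 43.6. Its rise of 3.77 ± 1.13 against DCs (limma, adjusted p = 0.0304) was lost without any 1 of the 6 libraries compared (adjusted p of up to 0.0815) and with no minimum value (adjusted p = 0.074). Its rise of 3.81 ± 1.13 against PDGFRα+SCA1+ cells (limma, adjusted p = 0.0346) was likewise lost without any 1 of those 6 libraries (adjusted p of up to 0.0893) and with no minimum value (adjusted p = 0.084). The retinoic acid receptor Rarb was 217, 157 and 183 in PDGFRα-SCA1+ cells and 10.2 to 58.6 elsewhere, a rise of 3.44 ± 0.49 against DCs (limma, adjusted p = 0.000269).

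Some other P450 values of this fraction had the same order over the mice as the hepatocyte markers, and others did not. The marker sums were 6994, 13226 and 3611 in mice A, E and F. Of the 51 P450 genes that reached 1, 24 were highest in mouse E, 11 in mouse A and 16 in mouse F. Cyp2f2 was 63.9, 89 and 12.3, in the same order. Cyp2c67, of the drug-metabolising Cyp2c cluster, was 15.2, 22.8 and 13.7, also in that order, and rose by 3.71 ± 0.63 against DCs (limma, adjusted p = 0.00087). Of the 20 hepatocyte markers 5 rose and 3 fell against DCs, and their part in these P450 values was not tested. Cyp2e1, at 120.1, 16.5 and 92.1, was lowest in mouse E. Cyp1a1 and Cyp26b1 were highest in mouse F and Cyp4b1 in mouse A.

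Some P450 genes have a known sex bias in mouse liver. Cyp2b9, which is female-biased, was 0.894 in DCs, 4.81 in PDGFRα+SCA1- cells, 0 in PDGFRα+SCA1+ cells and 12 in PDGFRα-SCA1+ cells of the female mouse F, and 0 in all 8 libraries of the males. Cyp2d9, which is male-biased, was 56.1, 73.4 and 0 in the PDGFRα-SCA1+ libraries, 0 in that of the female. In the other fractions it did not separate the animals by sex, with 2.88, 39.3 and 5.29 in PDGFRα+SCA1+ cells, where the female lay above male A, 0, 34.4 and 0 in PDGFRα+SCA1- cells, where male A was at 0 like the female, and 1.65, 8.07 and 0.206 in DCs. With 1 female there is no test of sex. In the transwell experiment sex-biased genes differed between the cell types, whose donors were different littermates. Fresh DCs held Cyp2b9 at 6.57 and 12.8, Cyp2a4 at 6.42 and 9.01 and Cyp2d9 at 0.915 and 1.74. Fresh Msc held Cyp2b9 and Cyp2a4 at 0 and Cyp2d9 at 202 and 184. The male-biased hepatocyte gene Mup20 was 0.25 and 0.689 in the DCs and 1634 and 1651 in the Msc.

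Fresh Msc had the highest P450 sums of all groups, 4059 and 3982, with 31 and 33 genes at 10 or more. Cyp2e1 led at 1402 and 1512. Beside it stood hepatocyte P450s that the PDGFRα+ fractions held at low level, such as Cyp2f2 at 796 and 513 (at most 52.6 in the PDGFRα+ fractions), Cyp2d26 at 123 and 143, the bile acid enzyme Cyp2c70 at 88.3 and 119.7 and the caffeine-oxidising Cyp1a2 at 60.4 and 107. Cyp2e1 was 3.31 and 4.31% of the hepatocyte marker sum, against 19.3 to 194% in the fresh PDGFRα+ fractions, and the share of hepatocyte RNA in these levels was not tested.

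In culture most of the P450 genes fell in Msc. Of the 63 genes tested, 4 rose and 33 fell in Msc alone against fresh Msc, beside 27.4% and 17.4% of all genes. In Msc grown with DCs 5 rose and 35 fell, beside 26% and 17.3% of all genes, against the same fresh libraries. The median difference of the P450 genes was -1.79 and -1.79, and that of all genes 0.18 and 0.17. Of the 31 xenobiotic genes tested 23 fell in each, and all 20 hepatocyte markers fell in each.

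Cyp2e1 fell to 41.5 and 35.8 in Msc alone and to 12.4 and 25 in Msc with DCs. It fell by 5.2 ± 0.36 in the first and fell by 6.29 ± 0.36 in the second (limma, adjusted p = 5.05e-06 and 1.74e-06). The cultured libraries still held 170 to 687 reads of it. The sum of the 20 hepatocyte markers was 138 and 172 in Msc alone and 738 and 107 in Msc with DCs, and in Msc alone 4 and 3 of them were at 10 or more. Of these Ahsg, a plasma glycoprotein, was 53 and 107 and Tdo2, which breaks down tryptophan, was 37.7 and 39.7, while Cps1 and Hpd were 0 in all 4 cultured libraries. The part of hepatocyte RNA in the remaining Cyp2e1 was not tested. Cyp2f2 was 0 and 3.89 in Msc alone and 0 and 1.09 with DCs. Cyp27a1 was 237 and 175 in fresh Msc, 35.7 and 29.4 in Msc alone and 20.9 and 15.6 with DCs. It fell by 2.61 ± 0.43 in Msc alone and fell by 3.42 ± 0.43 with DCs (limma, adjusted p = 0.000956 and 0.000197), the first call being lost with a pseudocount of 0.1 (adjusted p = 0.0757).

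Cyp7b1 (ENSMUSG00000039519.6, chromosome 3, 18071950 to 18243338 on the minus strand) rose instead and led the P450 genes of cultured stroma with 49.7 to 58.9% of their sum. It was 46.5 and 43.1 in fresh Msc, 586 and 554 in Msc alone and 480.3 and 701 in Msc with DCs. The cultured and fresh libraries did not overlap, and the cultured means were 12.7 and 13.2 times the fresh one. The rises were 3.64 ± 0.23 and 3.67 ± 0.23 (limma, adjusted p = 3.02e-06 and 3.1e-06). All 20 hepatocyte markers fell in the same comparisons, and the bearing of that on the Cyp7b1 level was not tested.

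Cyp1b1 was 53.6 and 56.5 in fresh Msc, 128 and 218 in Msc alone and 142 and 210.1 with DCs. It rose by 1.58 ± 0.4 and 1.64 ± 0.4 (limma, adjusted p = 0.0104 and 0.00904). Both calls were lost without the second cultured library (adjusted p = 0.0857 and 0.0709) and with a pseudocount of 0.1 (adjusted p = 0.117 and 0.108). Cyp2u1, which hydroxylates long-chain fatty acids, was 5.46 and 6.94 in fresh Msc and 18.4 and 16.3 in Msc alone, a rise of 1.36 ± 0.31 (limma, adjusted p = 0.00596). Cyp39a1 was 2.66 and 3.0 in fresh Msc and 8.41 and 12.5 in Msc alone, and its rise of 1.56 ± 0.39 (limma, adjusted p = 0.00918) was lost without the second library of Msc alone (adjusted p = 0.0668).

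Between Msc with DCs and Msc alone limma called 0 P450 genes, where 3 had an unadjusted p under 0.05 and 0.127% of all genes were called in either direction. Cyp2d22 was 76.9 and 72.5 in Msc alone and 47.5 and 46.2 with DCs, a difference of -0.66 ± 0.14 (limma, adjusted p = 0.176). The first library of Msc with DCs held Alb at 305, against at most 9.24 in the other 3 cultured Msc libraries. It was also the one cultured Msc library with Cyp2b10 (2.47) or Cyp2c29 (6.66) above 0.

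**Figure D4:**
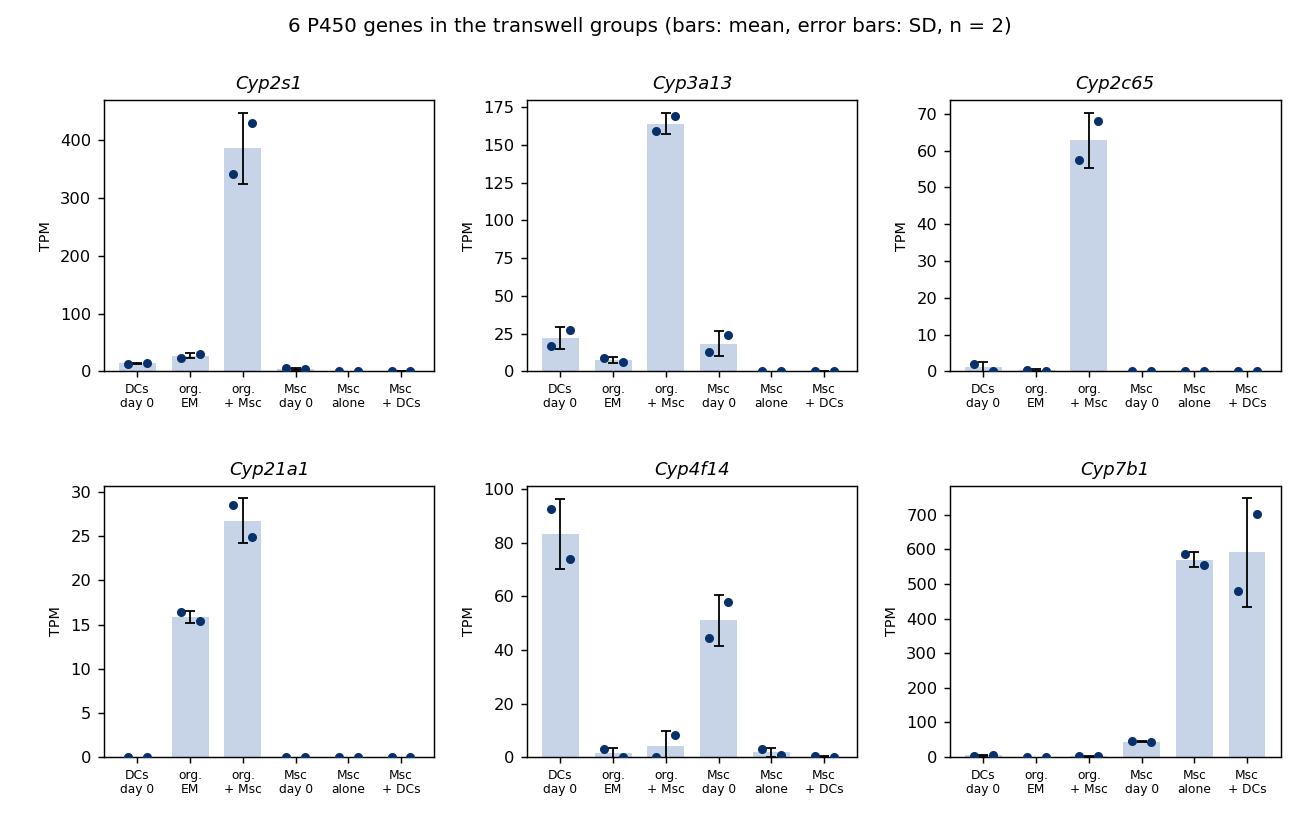
TPM of 6 P450 genes in the 6 transwell groups, with 1 point per library, bars at the mean and error bars of 1 SD (n = 2). Cyp2s1, Cyp3a13 and Cyp2c65 are high in organoids grown with Msc, Cyp21a1 in both kinds of organoid, Cyp4f14 in fresh cells and Cyp7b1 in cultured Msc.

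Organoids in EM had P450 sums of 601 and 671, fresh DCs 685 and 823 and organoids with Msc 1043 and 1209.7. Against fresh DCs 11 genes rose and 24 fell in EM, beside 27.1% and 17.2% of all genes. With Msc 14 rose and 24 fell, beside 23.2% and 19.1% of all genes, against the same DC libraries. Of the 31 xenobiotic genes tested 16 and 15 fell. Cyp2e1 was 28.3 and 57.8 in fresh DCs and at most 1 read in any organoid library, and fell by 5.33 ± 0.36 in EM (limma, adjusted p = 3.94e-06). Of the 20 hepatocyte markers 11 fell and 2 rose in EM. Serpina3k went from 85.1 and 116 to 0.0681 and 0, and Gc from 267 and 328 to 3164 and 3124. The marker sum was 8336 and 9823 in fresh DCs and 8200 and 7345 in EM. The part of hepatocyte RNA in the P450 falls was not tested.

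The DC gene Cyp4f14 fell in both kinds of organoid, from 92.6 and 74 to 2.86 and 0 in EM and 0 and 8.11 with Msc. It fell by 5.42 ± 0.95 and fell by 4.79 ± 0.95 (limma, adjusted p = 0.00136 and 0.00292). Cyp24a1, the mitochondrial enzyme that inactivates vitamin D, was 11.6 and 11.4 in fresh DCs, from 355 and 253 reads, and 0 in the other 10 transwell libraries. Its DC mean was at least 81.6-fold higher than the floor of 3 reads per library in EM organoids, where it fell by 3.64 ± 0.25 (limma, adjusted p = 4.48e-06). In the fresh fractions it was above 0 in 1 library, the DCs of mouse E, with 197 reads. Its exons overlap those of Pfdn4 on the other strand, and the libraries keep no strand. The vitamin D receptor Vdr was 0.967 and 1.02 in fresh DCs, 32.4 and 36.8 in EM and 7.54 and 7.47 with Msc.

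Of the 6 steroid hormone genes 3 were tested in the transwell experiment, and 2 of them rose in EM organoids against DCs, beside 27.1% of all genes. The same 2 rose with Msc, beside 23.2% of all genes. Cyp17a1, the third tested, which makes the precursors of androgens, was 0 and 2.51 in fresh DCs and 0 in all 4 organoid libraries. Cyp21a1 (ENSMUSG00000024365.9, chromosome 17, 34801348 to 34804561 on the minus strand), the steroid 21-hydroxylase of the adrenal cortex, was 16.4 and 15.4 in EM organoids and 28.5 and 24.9 with Msc, from 210 to 546 reads, and 0 in fresh DCs and all Msc libraries. The organoid means were at least 67.9-fold and 114-fold higher than the floor of 3 reads in DCs, and the rises were 4.08 ± 0.27 and 4.79 ± 0.27 (limma, adjusted p = 3.04e-06 and 1.46e-06). Its exons overlap those of Tnxa on the other strand, so reads of the pair cannot be told apart. Cyp11a1, which makes pregnenolone from cholesterol, was 0.0484 and 0.2 in fresh DCs, 2.33 and 2.12 in EM and 4.16 and 4.91 with Msc, and shares exon bases with a predicted gene on its own strand. It rose by 1.52 ± 0.27 and 2.3 ± 0.27 (limma, adjusted p = 0.00127 and 0.000111).

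Between the 2 kinds of organoid 8 P450 genes were higher with Msc and 4 lower, beside 5.74% and 7.21% of all genes, or 10 and 3 after quantile normalization. The count of 12 dropped to 7 without the first library with Msc. Cyp2s1 (ENSMUSG00000040703.11, chromosome 7, 25802475 to 25816913 on the minus strand) was 13.7 and 14 in fresh DCs, 23.8 and 29.8 in EM and 342 and 429 with Msc, where it led with 32.8 and 35.4% of the P450 sum. Its mean with Msc was 14.4 times that in EM, and it rose by 3.79 ± 0.26 (limma, adjusted p = 2.4e-05). The smaller rise from DCs to EM, 0.89 ± 0.26 (limma, adjusted p = 0.0185), was lost without either DC library or the second EM library (adjusted p of up to 0.121), with a pseudocount of 0.1 (adjusted p = 0.061) and after quantile normalization (adjusted p = 0.171). Exons of Cyp2s1 overlap those of a predicted gene on the other strand.

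Cyp3a13 was 17.1 and 27.5 in fresh DCs, 9.01 and 5.99 in EM and 159 and 169 with Msc. Its mean with Msc was 21.9 times that in EM, a rise of 4.3 ± 0.35 (limma, adjusted p = 7.64e-05). Cyp2c65, a Cyp2c gene known from the intestine, was 2.05 and 0.166 in fresh DCs, 0.509 and 0.162 in EM and 57.4 and 68 with Msc, a rise of 5.58 ± 0.43 over EM (limma, adjusted p = 4.57e-05). Among DCs and organoids both genes were highest with Msc.

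Cyp2b10, the classical target of the receptor Car (Nr1i3), was 0 in DCs and in EM and 7.94 and 9.42 with Msc, from 150 reads in each library, at least 36.6-fold higher than the floor of 3 reads in EM. Nr1i3 itself was at most 0.579 in DCs and organoids. Cyp4f40, of the fatty acid family 4, was 0 in DCs and in EM and 4.39 and 13.3 with Msc, a rise of 3.13 ± 0.41 over EM (limma, adjusted p = 0.00113). Cyp2j6 was 59.3 and 55.7 in DCs, 82.3 and 92.2 in EM and 126 and 147 with Msc. Its rise with Msc over DCs, 1.23 ± 0.18 (limma, adjusted p = 0.000497), held without each library in turn, whereas that over EM, 0.64 ± 0.18 (limma, adjusted p = 0.0482), was lost without any 1 of 8 libraries, those of both organoid groups, fresh DCs and Msc alone (adjusted p of up to 0.237), and under 4 of the other alternatives.

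In the other direction, Cyp4b1 was 35.1 and 42.8 in EM and 7.73 and 7.06 with Msc, where it fell by 2.25 ± 0.33 (limma, adjusted p = 0.00196), and 17.4 and 18 in fresh DCs lay between them. Cyp2d22 was 188 and 192 in EM and 85.1 and 95.9 with Msc, where it fell by 1.06 ± 0.14 (limma, adjusted p = 0.00113). Cyp2c68 was 2.76 and 10.01 in fresh DCs, 31.6 and 39.5 in EM and 11.8 and 15.2 with Msc, and rose by 2.5 ± 0.44 in EM over DCs (limma, adjusted p = 0.00133). The Cyp2c, Cyp2d and Cyp3a genes lie in clusters of close copies, and reads that fit more than 1 copy were removed, so the split between such copies is uncertain.

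Other genes of the small role groups were low in most libraries. In vitamin D metabolism, the 25-hydroxylase Cyp2r1 was 8.28, 15.4 and 1.44 in PDGFRα-SCA1+ cells, 0 and 1.28 in the transwell DCs and 7.03 and 6.22 in EM, and the activating enzyme Cyp27b1 was at most 4.42 in any fresh fraction. Cyp7a1, the rate-limiting enzyme of bile acid synthesis in hepatocytes, was 0 in all 12 libraries of the fresh fractions and at most 1.52 in the transwell experiment. Cyp8b1, which sets the cholic acid share of bile acids, was 35.9 and 23.4 in fresh Msc and at most 0.0668 in cultured Msc. Of the steroid genes, Cyp19a1 (aromatase) and Cyp11b2 (aldosterone synthase) were 0 in all 24 libraries, as was the retinoid gene Cyp26c1.

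**Figure D5:**
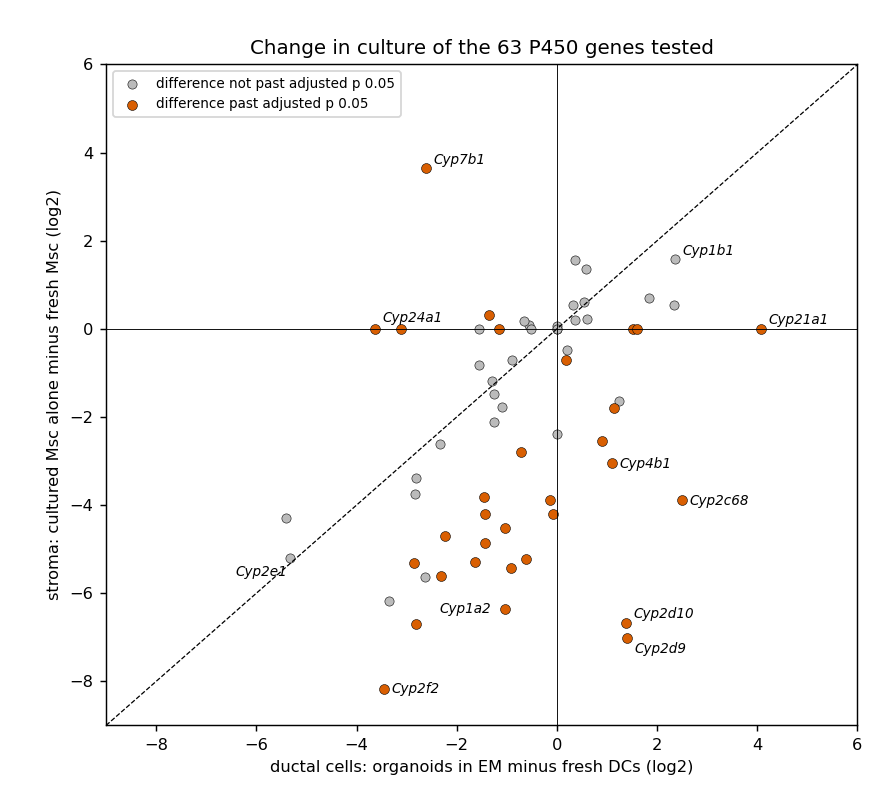
Log2(TPM + 1) change in culture of the 63 P450 genes tested, in ductal cells (organoids in EM minus fresh DCs, horizontal) and in stroma (Msc alone minus fresh Msc, vertical), with the dashed line at equal change. Orange points are the 31 genes whose changes differed by limma, and Cyp7b1 rises in stroma and falls in ductal cells.

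The change in culture was compared between stroma and ductal cells as the difference of the 2 changes. Per the paper, these organoids grew in Matrigel in EM, while Msc were expanded and kept on plates in a medium without its growth factors. Cell type, medium, culture format and time in culture therefore cannot be told apart in this difference. It passed for 31 of the 63 genes, beside 26.8% of all genes called in either direction, with 26 lower in stroma. Cyp7b1 had the largest positive difference, 6.25 ± 0.33 (limma, adjusted p = 4.22e-06), with 4.13 and 6.27 in fresh DCs and 0 and 0 in EM. Cyp4b1 was 120.4 and 85 in fresh Msc and 15 and 8.55 in Msc alone, and its change was lower in stroma, with a difference of -4.14 ± 0.46 (limma, adjusted p = 0.000271). Of the 20 hepatocyte markers, which fresh Msc held at high level, 15 also passed as lower in stroma. Of the 6 endothelial markers 4 fell and 0 rose in Msc alone against fresh Msc, beside 17.4% and 27.4% of all genes. In the difference of the changes 2 of these 6 were higher and 2 lower in stroma. The part of hepatocyte or endothelial RNA in the P450 differences was not tested.

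The electron partners of P450 enzymes were expressed in every group. Of 6 such genes 4 rose and 1 fell in EM organoids against DCs, and the same numbers did with Msc, beside 27.1% of all genes higher and 17.2% lower in EM and 23.2% and 19.1% with Msc. The reductase Por went from 542 and 624 to 146 and 143 in EM and 206 and 214 with Msc, and fell by 2.0 ± 0.13 in the first and fell by 1.47 ± 0.13 in the second (limma, adjusted p = 3.08e-06 and 2.18e-05). Cytochrome b5 (Cyb5a) rose, from 85.9 and 85 to 460.3 and 459.7 in EM, by 2.42 ± 0.09 (limma, adjusted p = 2.08e-07). Of 10 genes of haem synthesis and breakdown 7 rose and 1 fell in EM, beside the same shares of all genes in EM. The haem oxygenase Hmox1 went from 2106 and 3039 to 52.4 and 50.8, and fell by 5.59 ± 0.24 (limma, adjusted p = 4.09e-07). Of 17 transcription factors known to control P450 genes 15 were tested in the fresh fractions, where 0 rose and 5 fell in PDGFRα+SCA1+ cells against DCs, beside 9.85% and 14% of all genes. In SCA1-only cells 2 rose and 3 fell, beside 11.5% and 11.3%. In EM organoids 4 of the 16 tested rose and 3 fell, beside 27.1% and 17.2%. In the fresh fractions Por was 194 to 964 over the 12 libraries, and Cyb5a was 623 to 811 in PDGFRα-SCA1+ cells and 141 to 343 in the others.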

How the data were processed

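RNA of sorted and cultured mouse liver cells was sequenced by Smart-seq2 as single reads of 50 bases without strand. Per the submitters' processing notes, STAR 2.5.0a, SAMtools and featureCounts 1.6.0 were used with GRCm38 (mm10), and a quality filter removed reads with several placements. The authors deposited RPKM values for the transwell libraries, which were scaled here to TPM. The deposited values of the fresh fractions, named TPM by the authors, were treated as a score, because their columns sum to 847270 to 1173511. Each equals a TPM times 0.722 to 1.386, since library totals were reused in rotation down the rows, and an alternative undoes this. The 4 columns of group means were not used.

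Reads were recovered from the values and exon lengths (GENCODE M21). Of values up to 20 reads, 92.9% (fresh) and 93.0% (transwell) were whole within 0.02 reads. Floors are 3 reads per library and cover counting error only. Annotation matched 92 of 93 genes. Each experiment was fitted with limma 3.58.1 in R 4.3.3 on log2(value + 1), with 1 mean per group over its 12 libraries, eBayes with trend, two-sided tests and Benjamini-Hochberg adjustment over all 17028 (fresh) or 18133 (transwell) genes tested. The fit was tested on simulated data. The added 1 makes a difference understate the change of low genes, and against a group at 0 it sets its size.

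Libraries with 1 letter come from 1 mouse, and their deviations from the group means had a mean correlation of 0.024 to 0.06. The value between mice, -0.149 to -0.13, is no contrast to it, because deviations within a group cancel by construction. With mouse as a block, Cyp4f13 between SCA1-only and PDGFRα+SCA1+ cells was the call that changed (adjusted p = 0.0505). Transwell libraries of different groups share only a replicate number. The paper calls the replicates independent biological ones, and took the Msc and the DCs from different littermates. The labels do not say which mouse each transwell library came from, and the transwell p-values measure the spread between these libraries. Values were printed for genes that passed without overlap of the groups (at most 8 rises and falls a comparison) or had a group mean of at least 10, and for genes of fixed lists. Members and lists were chosen with earlier results of these data known. Alternatives were a pseudocount of 0.1, no minimum, a minimum of 5, quantile normalization, the other scaling, no trend, the compared groups alone, the block and leaving out each library.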

Additional observations from a re-analysis of the deposited data

Results flagged for a closer look

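The change in culture differed between stroma (Msc alone minus fresh Msc) and ductal cells (organoids in EM minus fresh DCs) for 13 P450 genes that the naming rule gives, by the limma test of the difference itself. Medium, culture format and time in culture differed along with the cell type. The difference was higher in stroma for Cyp7b1 (6.25, adjusted p = 4.22e-06), Cyp24a1 (3.64, adjusted p = 0.000133), Cyp2a4 (3.11, adjusted p = 0.000462), Cyp4f18 (1.67, adjusted p = 0.0261) and Cyp2a22 (1.16, adjusted p = 0.0395). It was lower for Cyp4b1 (-4.14), Cyp2j5 (-4.51), Cyp2c54 (-4.6), Cyp2f2 (-4.73), Cyp1a2 (-5.31), Cyp2c68 (-6.39), Cyp2d10 (-8.04) and Cyp2d9 (-8.4), with adjusted p of 1.77e-06 to 0.0125. Cyp24a1, Cyp2a4 and Cyp2a22 were 0 in fresh and cultured Msc, so their values are falls in ductal cells alone. Cyp4f18 was 0 in fresh Msc and 0.562 and 0 in Msc alone, and went from 1.25 and 1.9 in fresh DCs to 0 in EM. Cyp2a22 was lost without any 1 of the 10 libraries whose removal left it tested (adjusted p of up to 0.089), and Cyp4f18 without either EM library or the first library of Msc alone (adjusted p of up to 0.0817). Cyp2f2 and Cyp1a2 were lost with a pseudocount of 0.1 (adjusted p = 0.0912 and 0.0507). Fresh Msc held more hepatocyte marker RNA (sums of 42342 and 35059.5) than fresh DCs (8336 and 9823), and its part in these differences was not tested. Fresh Msc also held ductal and endothelial marker RNA, whose part was not tested either. Cyp2d9 and Cyp2a4 are among the sex-biased genes that differed between fresh DCs and fresh Msc. The donors of these were different littermates whose sex is not given, and the part of sex was not tested.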

How the results depend on the processing

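When each library was left out in turn, the count of P450 genes called against DCs ranged over 8 to 13 (PDGFRα+SCA1+), 8 to 13 (PDGFRα+SCA1-) and 9 to 16 (PDGFRα-SCA1+), and between stromal fractions over 0 to 1 and 6 to 14. The count of 1 between the PDGFRα+ fractions came without the PDGFRα+SCA1- library of mouse E or F. In the transwell experiment it ranged over 25 to 41 (EM against DCs), 27 to 43 (with Msc against DCs), 7 to 14 (with Msc against EM), 34 to 39 and 36 to 42 (Msc alone and with DCs against fresh Msc), 0 to 0 (Msc with DCs against alone) and 24 to 32 (difference of the changes). No other alternative moved a count by over 1.5 times. Over 227 pairs of a named gene and a comparison, leaving out a library gave 2662 values, of which 159 lost the call and 0 changed direction, and the other alternatives gave 1781, of which 56 lost it and 0 changed direction. Quantile normalization shifted the median of all genes by up to 0.249 (PDGFRα+SCA1- against DCs) and undoing the reused totals by up to 0.202. With the transwell replicate number as a block, 35 genes were called in EM against DCs. Deviations of same-numbered transwell libraries had a mean correlation of 0.005. This cannot exclude pairing by number, because fresh libraries known to share a mouse reached only 0.024 to 0.06. Depth limits values of a few reads, where a level of 0 cannot be told from one below 3 reads.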
